A study of Rattus norvegicus with 6 samples.

Results

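The proteasome is the protease that degrades ubiquitin-tagged proteins, and its genes were followed in rat heart muscle 6 h after coronary ligation. The genes were taken by name: every probe whose RefSeq accession mapped to a symbol beginning with Psma, Psmb, Psmc, Psmd, Psme, Psmf or Psmg. This gave 45 genes with 1 probe each, among 24614 probes with a usable spot on every array, which named 13876 genes. Psmc3ip, a meiotic recombination factor, and Psme3ip1, a partner of the activator PSME3, match by name only and are no subunits. Of the 45 genes, 44 were tested, and each of these was well above background on all 6 arrays. Psma8, an alpha subunit of the testis, was well above background on 2 arrays and was not tested. Psmd11, Psmg1, Psmg3, Psme4 and Psmb11 were not analysed here.

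Per the labels, the border zone group held 3 male Wistar rats (arrays M17, M24 and M25) with the left anterior descending coronary artery tied. The border of the infarct was located at 6 h by TTC and EB staining. The sham group held 3 male Wistar rats (arrays C4, C5 and C6), operated on without infarction and sampled from a control zone at 6 h. No genotype or drug was involved, and each sample was measured on 1 Agilent array of 1 colour. Levels below are log2 processed signal minus the 75th percentile of the same array, so 0 means the brightness of that percentile. Differences are border zone minus sham, and n counts arrays.

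Some arrays stood apart. The share of probes well above background was 74.3 to 78.3% in the border zone, 73.7% for C4, and 51.0 and 52.4% for C5 and C6. C4 was scanned together with the border zone arrays, and the other sham arrays were each scanned apart, so the difference from C4 alone is given beside the genes named. On C5 and on C6, all 13 measured markers of central nervous tissue exceeded their values on the other 4 arrays, and 11 of the 13 were well above background on each. Syt1 and Slc17a7 were well above background on no array, so their order is one of background signal. The summed linear signal of all 13 markers was 1.32 to 1.66 times the 75th percentile on border zone arrays and 2.13 to 16.95 times it on sham arrays. M25 lay between M17 and M24 for 558 of the 572 probes (97.6%) on which those arrays were at least 2-fold apart, so whether it is a separate animal is in doubt. None of the proteasome genes was among those 572, and M25 lay between for 31 of the 44 (70.5%), the share of all probes tested. Neutrophil markers had 8 of 9 genes higher in the border zone, where 9.01% of all probes were called higher and 10.3% lower. Their summed signal was 6.39 to 6.66 on border zone arrays and 0.258 to 0.518 on sham arrays. Of the 9 neutrophil markers, 1 was well above background on all 6 arrays, and 3 on no sham array. All but that 1 entered the test through the border zone arrays alone, so the count of calls depends on that filter. All 9 measured cardiomyocyte markers were well above background on all 6 arrays and none passed the test, with a summed signal of 633 to 730 on border zone arrays and 709 to 920 on sham arrays. Monocyte and macrophage markers had 5 higher and 2 lower of 11 tested. Of the 11, Itgam (called higher), Cx3cr1 (called lower) and Ccr2 (no call) entered the test through the border zone arrays alone. The summed signal of the monocyte and macrophage markers was 82.7 to 86.0 on border zone arrays and 43.4 to 50.8 on sham arrays. Lymphocyte markers had 1 higher of 6 tested (3.48 to 4.68 and 3.34 to 3.65), fibroblast markers 2 lower of 4 (59.5 to 73.4 and 92.8 to 119), and endothelial markers 0 of 3 (7.22 to 8.41 and 8.08 to 8.85). The part of these cells in the proteasome values was not tested. In bulk tissue, fewer cells of a type and less RNA per cell cannot be told apart.

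The core particle of the proteasome is a barrel of stacked rings. The outer alpha rings gate the pore and the inner beta rings hold the catalytic sites. The regulatory cap has a ring of ATPases, which unfold substrates, and non-ATPase subunits, which bind and remove ubiquitin. Interferon gamma induces alternative catalytic beta subunits and the PA28 activator, which together make the immunoproteasome and shape peptides for MHC class I. When proteasome activity is short, the transcription factor NRF1 raises the subunit genes together through antioxidant response elements. In heart muscle the proteasome is a main route of protein turnover.

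Promoters are shown for the 3 genes that passed the test and for the 5 immunoproteasome genes, which are described apart. They are RefSeq sequences of the GRCr8 build, from 250 bases before to 50 after each gene's start, 5′ to 3′ on the gene's strand. Capitals mark matches on either strand to the antioxidant response element core (TGACNNNGC), the interferon-stimulated response element or the gamma-activated site (TTCNNNGAA).
Psmb2, chr5:144254808-144255107, plus strand: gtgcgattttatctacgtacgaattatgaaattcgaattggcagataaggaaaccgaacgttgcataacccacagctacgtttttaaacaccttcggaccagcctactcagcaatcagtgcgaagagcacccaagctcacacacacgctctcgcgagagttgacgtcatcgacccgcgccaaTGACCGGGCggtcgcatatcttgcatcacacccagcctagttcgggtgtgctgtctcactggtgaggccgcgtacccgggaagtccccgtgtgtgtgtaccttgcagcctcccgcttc
Psmc6, chr15:21022064-21022363, plus strand: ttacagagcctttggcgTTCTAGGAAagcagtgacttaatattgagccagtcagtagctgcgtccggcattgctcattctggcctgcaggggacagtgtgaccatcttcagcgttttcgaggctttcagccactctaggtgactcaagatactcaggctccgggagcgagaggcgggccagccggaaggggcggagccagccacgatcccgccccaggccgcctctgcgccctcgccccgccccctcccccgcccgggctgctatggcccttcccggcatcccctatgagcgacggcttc
Psmd8, chr1:93608640-93608939, minus strand: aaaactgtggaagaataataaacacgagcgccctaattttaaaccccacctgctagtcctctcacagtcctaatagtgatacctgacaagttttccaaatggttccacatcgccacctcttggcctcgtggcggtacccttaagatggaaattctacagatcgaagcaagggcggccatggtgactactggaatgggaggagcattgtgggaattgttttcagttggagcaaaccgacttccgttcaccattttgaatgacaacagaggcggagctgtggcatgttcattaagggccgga
Psmb8, chr20:4656982-4657281, minus strand: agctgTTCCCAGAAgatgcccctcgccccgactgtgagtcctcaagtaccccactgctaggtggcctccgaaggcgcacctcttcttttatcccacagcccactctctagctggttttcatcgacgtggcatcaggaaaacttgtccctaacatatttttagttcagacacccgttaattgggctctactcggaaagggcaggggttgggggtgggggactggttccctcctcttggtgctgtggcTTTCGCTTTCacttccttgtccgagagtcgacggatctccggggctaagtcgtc
Psmb9, chr20:4668750-4669049, plus strand: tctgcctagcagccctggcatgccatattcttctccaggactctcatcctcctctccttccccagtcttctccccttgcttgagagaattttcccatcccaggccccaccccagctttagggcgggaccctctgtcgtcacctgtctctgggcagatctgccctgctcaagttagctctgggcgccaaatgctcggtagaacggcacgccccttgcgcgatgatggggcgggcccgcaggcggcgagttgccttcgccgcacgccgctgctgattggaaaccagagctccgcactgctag
Psmb10, chr19:50743243-50743542, minus strand: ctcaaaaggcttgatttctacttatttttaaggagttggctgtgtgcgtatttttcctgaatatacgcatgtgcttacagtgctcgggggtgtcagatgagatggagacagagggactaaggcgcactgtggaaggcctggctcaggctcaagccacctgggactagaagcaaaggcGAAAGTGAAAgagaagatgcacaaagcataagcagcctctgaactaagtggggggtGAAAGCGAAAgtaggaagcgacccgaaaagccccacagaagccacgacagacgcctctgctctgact
Psme1, chr15:33038721-33039020, plus strand: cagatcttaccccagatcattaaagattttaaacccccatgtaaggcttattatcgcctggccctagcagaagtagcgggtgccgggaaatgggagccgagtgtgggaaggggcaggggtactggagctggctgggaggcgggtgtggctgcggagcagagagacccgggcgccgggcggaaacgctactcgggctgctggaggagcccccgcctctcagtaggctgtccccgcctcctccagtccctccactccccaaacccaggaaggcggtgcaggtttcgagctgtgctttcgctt
Psme2, chr15:33052702-33053001, minus strand: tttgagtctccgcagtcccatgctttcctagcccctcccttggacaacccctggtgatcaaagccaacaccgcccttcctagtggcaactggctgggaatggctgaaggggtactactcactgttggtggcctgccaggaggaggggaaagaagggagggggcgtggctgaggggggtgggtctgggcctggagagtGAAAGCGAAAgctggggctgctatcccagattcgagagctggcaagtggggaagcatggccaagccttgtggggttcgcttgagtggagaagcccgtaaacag

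Of the 42 genes tested, those matching by name only left out, 38 had a promoter entry, and 11 motifs were searched in them on both strands. The antioxidant response element core was in 7 of the 38 (18.4%) and in 12.2% of all 27457 promoters. Its carriers were Psma3, Psmb2, Psmb5, Psmb6, Psmd1, Psmd3 and Psmd9, of which Psmb2 passed the test. The interferon-stimulated response element was in 7 of the 38 (18.4%) and in 3.77% of all promoters. Its carriers were Psma4, Psmb3, Psmb8, Psmb10, Psmd7, Psme2 and Psmg4, and none of these passed. Psmb10 held it at 2 places in the stretch printed above. The gamma-activated site was in 4 of the 38 (10.5%) and in 8.68% of all promoters. It stood in Psmb8, Psmc6, Psmd3 and Psmd7. Common promoter letters were also frequent: the GC box (GGGCGG) was in 71.1% of the 38 and 34.9% of all promoters, and the CCAAT box (CCAAT) in 52.6% and 37.7%. The ETS site (CCGGAAG) was in 26.3% of the 38 and 9.22% of all promoters, and the YY site (AAGATGGC) in 18.4% and 3.44%. The other 4 motifs were the cyclic AMP response element (TGACGTCA, 2.63% and 1.91%), the NF-kappaB core (18.4% and 19.6%), the heat shock element core (GAANNTTC, 7.89% and 8.34%) and the nuclear respiratory factor site (2.63% and 0.932%). Each is a match of letters in this window only. The printed promoters of Psmd8, Psmb9 and Psme1 had no match to the first 3 motifs.

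Of the 44 proteasome genes, 3 rose in the border zone and 0 fell (limma, Benjamini-Hochberg adjusted p below 0.05 over 17930 probes). The 3 were Psmb2, a beta ring subunit, Psmc6, an ATPase of the cap, and Psmd8, a non-ATPase of the cap. Over all probes tested, 9.01% were called higher and 10.3% lower, so 3 of 44 was no larger a share than the background. At an unadjusted p under 0.05 stood 13 genes, 12 of them higher in the border zone, where 36.4% of all probes did so and 17.4% were higher, and 5 had an adjusted p between 0.05 and 0.1. No gene passed with scan as a block, that is against C4 alone, where 8.43% of all probes were called higher and 7.5% lower, and 13 genes stood at an unadjusted p under 0.05 (36.9% of all probes). None passed without M17, M24, M25 or C5 either, where 3.42, 2.99, 1.59 and 3.69% of all probes were called higher. In those fits 8, 5, 3 and 7 genes stood at an unadjusted p under 0.05, beside 27.6, 26.7, 23.4 and 29.4% of all probes. Without C6, 2 were higher, beside 6.57% of all probes. Without C4, 13 were higher and Psme3ip1 was lower, beside 20.7% and 20.5% of all probes.

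Small positive differences were common across the subunits, and their size relative to other genes depended on the scaling of the arrays. The log2 fold change was above 0 for 36 of 44 genes, against 48.1% of all probes, with a median of 0.22 for the genes and -0.03 for all probes. All 3 border zone arrays lay above all 3 sham arrays for 24 of 44 genes, where 20.9% of all probes did so, and below them for 1 (Psme3ip1), where 22.8% did. Against C4 alone, all border zone arrays were above it for 35 of 44 genes (35.7% of all probes) and below it for 5 (41.2%). After quantile normalization the median of the 44 genes was 0.07, with 27 above 0, and that of all probes 0.09, so the sign of the difference turned, to -0.03. The authors' table, treated here as quantile-normalized, gave 0.07 and 0.09. Under quantile normalization and in the authors' table alike, the groups did not overlap upwards for 13 of 44 genes, where 24.1 and 24% of all probes did. Scaling to the array median gave 0.41 and 0.16, with 32 of 44 genes not overlapping upwards beside 29.5% of all probes. Normexp background correction gave 0.29 and -0.35, with 30 of 44 genes beside 15.6%. The 4 counts of genes not overlapping under other treatments were chosen after seeing the data. The probes of these genes were bright, with a median percentile of 93.2 by mean signal among the probes tested. The part of brightness in this dependence was not tested.

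**Figure D1:**
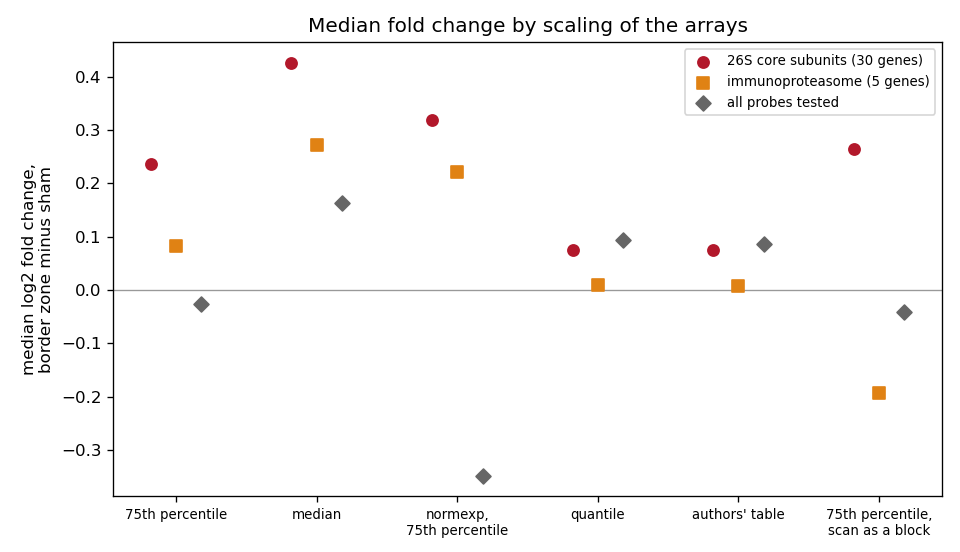
Median log2 fold change (border zone minus sham) of 30 tested subunits of the core particle and cap, 5 immunoproteasome genes and all probes tested, under 6 treatments of the same arrays. Subunits of the core particle and cap stand above all probes under 75th percentile, median and normexp treatment and with scan as a block. They stand slightly below all probes after quantile normalization and in the authors' table. Median and 75th percentile scaling differ by a shift shared by all probes, so the gap is the same by construction.

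The constitutive subunits of the alpha and beta rings and of the cap, 30 genes tested, held all 3 calls (9.01% of all probes called higher). Their median log2 fold change was 0.24, with 28 above 0, and 0.27 against C4. All border zone arrays were above C4 for 29 of the 30, and above every sham array for 20, beside 35.7% and 20.9% of all probes. After quantile normalization these counts were 20 and 10 of 30, beside 36.2% and 24.1% of all probes. Taken as the median over the 30 genes of each array's level minus the sham mean, the values were 0.26 on M17, 0.21 on M24 and 0.22 on M25, against -0.07, 0.02 and 0.05 on C4, C5 and C6. On this scale the 3 border zone arrays lay close together and above each sham array. Without M25 the median log2 fold change of these 30 was 0.25 with 0 calls, and against C4 without M25 it was 0.28 with 0 calls.

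**Figure D2:**
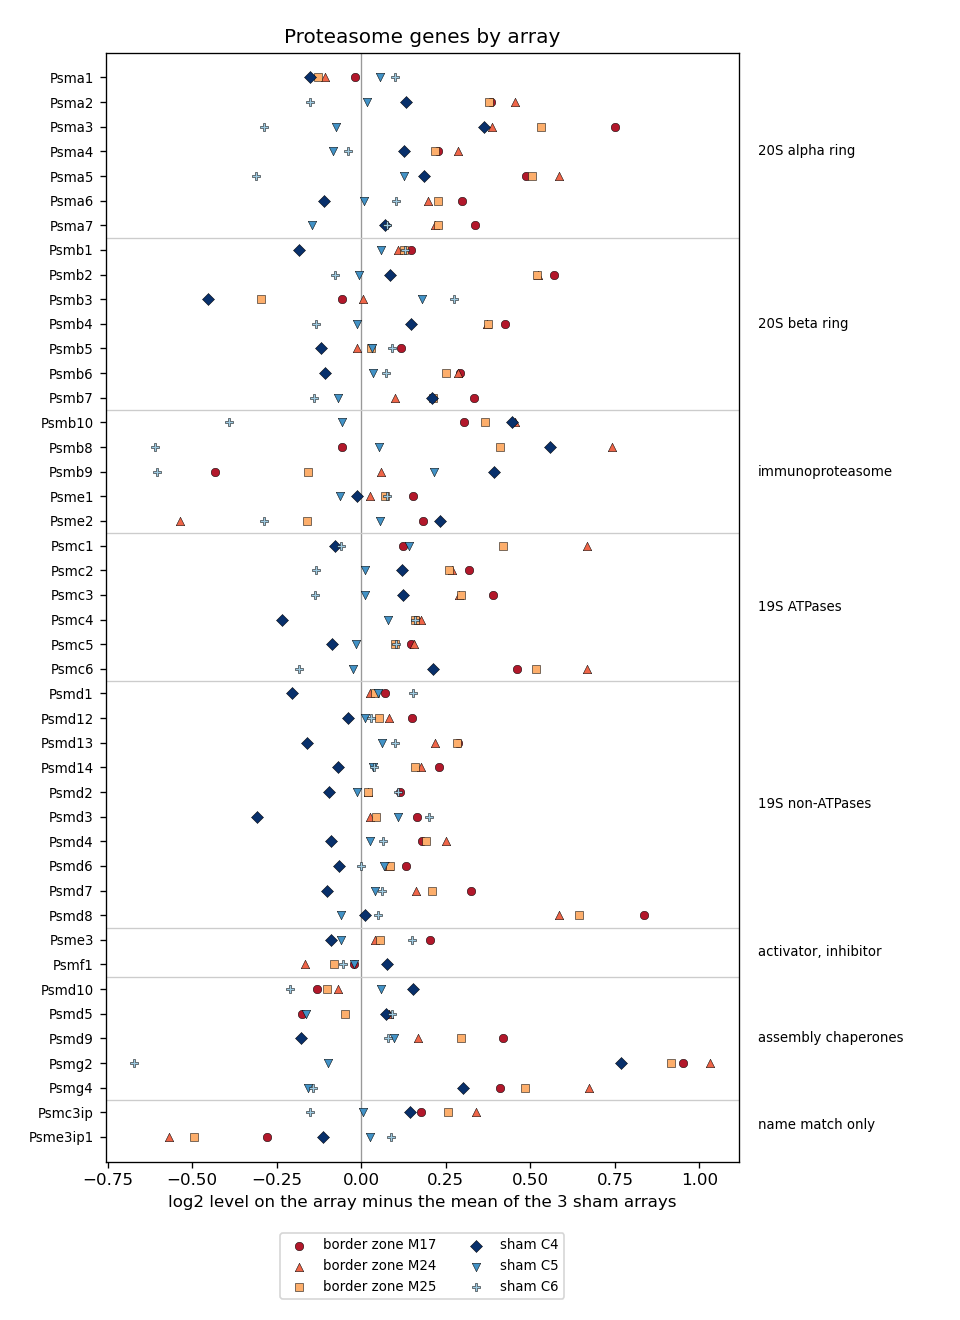
Level of each tested proteasome gene on each array, as log2 level minus the mean of the 3 sham arrays, with one marker shape per array and the genes grouped by role. Psmd8 and Psmb2 have their border zone markers well to the right of all sham markers, whereas the markers of the immunoproteasome genes overlap between groups.

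In the alpha rings, 0 of 7 tested genes passed, beside 9.01% of all probes called higher and 10.3% lower. The median log2 fold change of the 7 was 0.26, with a range of -0.08 (Psma1) to 0.56 (Psma3). Every border zone array was above every sham array for 6 of 7, beside 20.9% of all probes. Psma2, the alpha subunit with the smallest p, had 3.86, 3.93 and 3.85 in the border zone, against 3.61, 3.49 and 3.32 in sham. The border zone arrays were all higher, by 0.41 ± 0.12 (SE, n = 3 per group, limma adjusted p = 0.0650) and by 0.27 against C4. Psma3 and Psma5, chosen after their values were seen, had differences of 0.56 ± 0.20 (adjusted p = 0.109) and 0.53 ± 0.16 (adjusted p = 0.0726). Against C4 those of Psma3 and Psma5 were 0.19 and 0.34.

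Among the 7 constitutive beta genes, 1 passed, beside 9.01% of all probes called higher and 10.3% lower. Psmb2, a non-catalytic subunit, had 1.501, 1.45 and 1.45 in the border zone, against 1.01, 0.92 and 0.85 in sham. Every border zone array was higher than every sham array, and Psmb2 rose by 0.54 ± 0.10 (SE, n = 3 per group, limma adjusted p = 0.0223), which is 1.45-fold. Against C4 alone the difference was 0.45 (adjusted p = 0.0522 in the fit with scan as a block). The adjusted p lay between 0.00727 and 0.336 over 15 alternatives, 8 of which kept the call, and the difference was above 0 in all 15. Among the 15, the filter settings and the mean of a gene's probes use the same values, so they cannot change the difference. Psmb4, another non-catalytic subunit, had 4.35, 4.30 and 4.30 in the border zone, against 4.07, 3.91 and 3.79 in sham. Its groups did not overlap, but its difference of 0.39 ± 0.12 did not pass (adjusted p = 0.0689, 0.24 against C4).

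The catalytic constitutive subunits did not pass. Psmb5, which carries the chymotrypsin-like activity, had 5.02, 4.89 and 4.93 in the border zone, against 4.79, 4.94 and 4.996 in sham (0.04 ± 0.11, adjusted p = 0.802, 0.16 against C4). Psmb6, the caspase-like subunit, had 3.40, 3.39 and 3.36 in the border zone, against 3.00, 3.14 and 3.18 in sham (0.28 ± 0.11, adjusted p = 0.123, 0.38 against C4). Psmb7, the trypsin-like subunit, had 4.33, 4.10 and 4.21 in the border zone, against 4.21, 3.93 and 3.86 in sham (0.21 ± 0.14, adjusted p = 0.318, 0.01 against C4). Of the 3, the groups were apart for Psmb6 and overlapped for Psmb5 and Psmb7. The structural subunit Psmb1 had 3.76, 3.72 and 3.74 in the border zone, against 3.43, 3.67 and 3.74 in sham (0.13 ± 0.12, adjusted p = 0.492, 0.31 against C4). Psmb3, also structural, had 4.79, 4.85 and 4.55 in the border zone, against 4.39, 5.03 and 5.12 in sham (-0.12 ± 0.22, adjusted p = 0.736). For Psmb3 the border zone lay above C4 by 0.34 but below C5 and C6, and C4 was 0.68 below the mean of C5 and C6.

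In the ATPase ring, which unfolds substrates, 1 of 6 genes passed, beside 9.01% of all probes called higher and 10.3% lower. All 6 log2 fold changes were above 0 (median 0.30), where 48.1% of all probes were. Psmc6 had 0.86, 1.07 and 0.91 in the border zone, against 0.61, 0.37 and 0.21 in sham. Psmc6 rose by 0.55 ± 0.14 (SE, n = 3 per group, limma adjusted p = 0.0484), with no overlap between groups. Its call was close to the threshold: 3 of 15 alternatives kept it, with adjusted p between 0.0114 and 0.469. Among the 3 was the mean of a gene's probes, which is the same 1 probe here. Against C4 the difference was 0.34 (adjusted p = 0.146). The other 5 ranged from 0.13 (Psmc5) to 0.40 (Psmc1), and all 6 had every border zone array above C4, beside 35.7% of all probes.

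Of the 10 non-ATPases tested, 1 passed, beside 9.01% of all probes called higher and 10.3% lower. The median log2 fold change of the 10 was 0.14. Psmd8, part of the lid of the cap, had 0.43, 0.18 and 0.24 in the border zone, against -0.39, -0.46 and -0.36 in sham. The lowest border zone array lay well above the highest sham array, and Psmd8 rose by 0.69 ± 0.12 (SE, n = 3 per group, limma adjusted p = 0.0157), or 1.61-fold. Against C4 it was 0.68 (adjusted p = 0.0530 with scan as a block), and C4 differed from the mean of C5 and C6 by 0.02. The call held in 9 of 15 alternatives, with adjusted p between 0.00531 and 0.239, and without M25 the adjusted p was 0.1003. The difference of Psmd8 stayed between 0.61 and 0.88 over the 15. Of the other cap subunits, chosen here for their roles, Psmd14, the deubiquitinase of the lid, differed by 0.19 ± 0.10 (adjusted p = 0.236, 0.26 against C4), and Psmd4, a ubiquitin receptor, by 0.21 ± 0.10 (adjusted p = 0.213, 0.30 against C4). All 10 had every border zone array above C4, and 7 had it above every sham array, beside 35.7% and 20.9% of all probes.

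**Figure D3:**
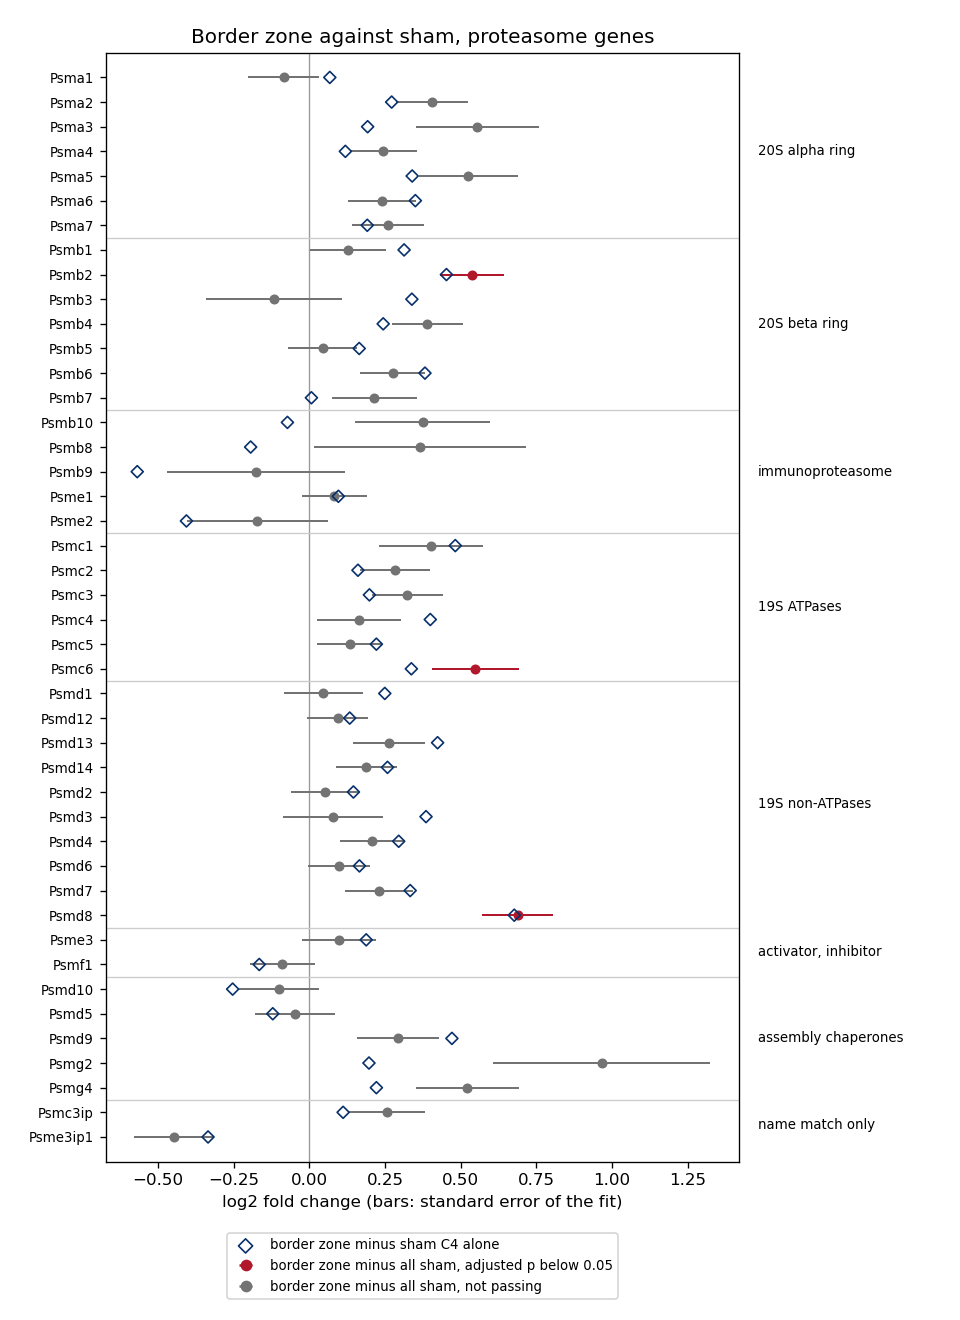
Log2 fold change of each tested proteasome gene, border zone minus all sham arrays (circles, bars are the standard error of the fit) and minus C4 alone (open diamonds). Red marks Psmb2, Psmc6 and Psmd8, which passed. The diamonds of Psmb8, Psmb9, Psmb10 and Psme2 lie below 0, as do those of Psmf1, Psmd5, Psmd10 and Psme3ip1.

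None of the 5 immunoproteasome genes passed in either direction, beside 9.01% of all probes called higher and 10.3% lower. For all 5 the groups overlapped, where 20.9% of all probes did not overlap upwards and 22.8% downwards. The median log2 fold change of the 5 was 0.08 and -0.19 against C4, beside -0.03 and -0.04 for all probes. Psmb8, which replaces Psmb5 in the immunoproteasome, had 1.97, 2.77 and 2.44 in the border zone, against 2.59, 2.08 and 1.42 in sham (0.36 ± 0.35, adjusted p = 0.486, -0.19 against C4). Psmb9, which replaces Psmb6, had 0.19, 0.68 and 0.47 in the border zone, against 1.01, 0.84 and 0.02 in sham (-0.18 ± 0.29, adjusted p = 0.693, -0.57 against C4). Both spread more within each group than between the groups. Psmb10, which replaces Psmb7, had 3.05, 3.21 and 3.12 in the border zone, against 3.20, 2.69 and 2.36 in sham (0.37 ± 0.22, adjusted p = 0.279). The border zone arrays of Psmb10 were close together and the sham arrays were not. Without C4, Psmb10 passed (adjusted p = 0.0247), whereas the difference from C4 itself was -0.07.

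The PA28 activator is built from PSME1 and PSME2. Psme1 had 5.07, 4.94 and 4.98 in the border zone, against 4.90, 4.85 and 4.99 in sham (0.08 ± 0.11, adjusted p = 0.603, 0.10 against C4). Psme2 had -2.55, -3.27 and -2.90 in the border zone, against -2.50, -2.68 and -3.03 in sham (-0.17 ± 0.23, adjusted p = 0.624, -0.41 against C4). Psme1 varied little among the 6 arrays and Psme2 more, with M24 lowest. In the GRCr8 gene table Psme1 and Psme2 lie on chromosome 15 with Emc9 between them, and Psmb8 and Psmb9 on chromosome 20 beside the peptide transporter genes Tap1 and Tap2.

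The differences among arrays of the same group were as large as those between groups for these genes. M24 exceeded M17 by 0.80 for Psmb8 and 0.49 for Psmb9, and lay 0.72 below it for Psme2. On the same arrays M24 exceeded M17 by 1.30 for Tap1, by 1.23 for Irf1, the interferon-responsive transcription factor, and by 1.05 for the T cell gene Cd3e. Of all probes tested, 12.5% had M24 at least 0.4 above M17. Among sham arrays, C4 exceeded the mean of C5 and C6 by 0.84 for Psmb8, 0.59 for Psmb9, 0.67 for Psmb10 and 0.87 for B2m, the light chain of MHC class I. Tap1, Irf1, Cd3e and B2m were chosen here after their values were seen.

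**Figure D4:**
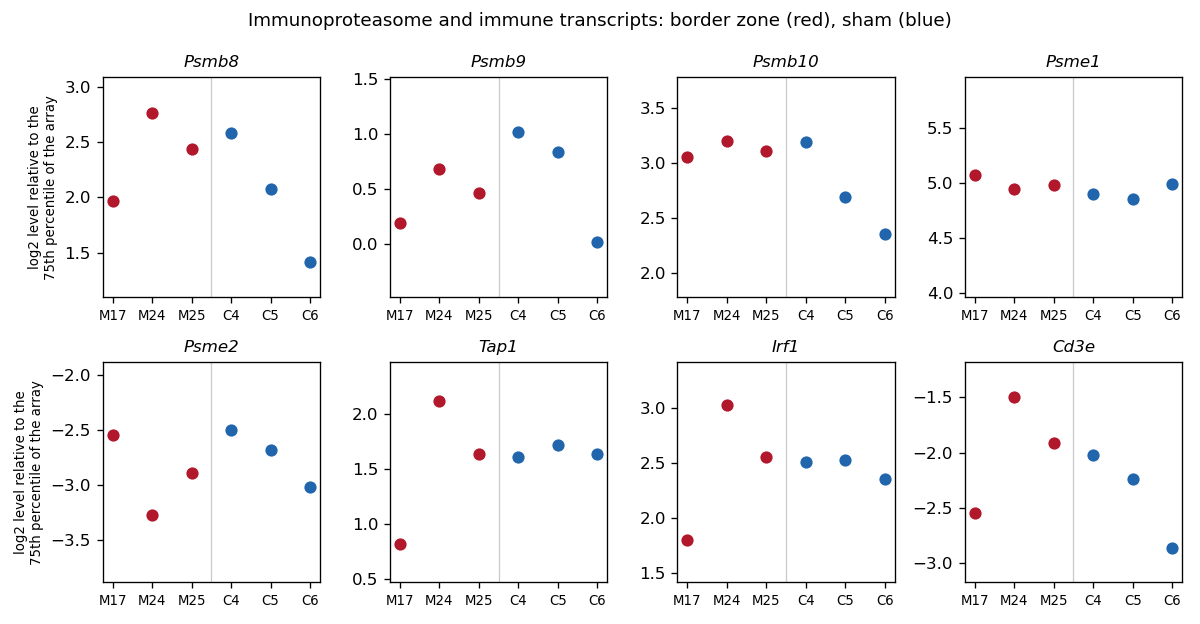
Log2 level relative to the 75th percentile of the array for the 5 immunoproteasome genes and for Tap1, Irf1 and Cd3e, 1 point per array, border zone arrays left of sham arrays. All panels span the same log2 range, and in all 5 proteasome panels the 2 groups overlap.

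The remaining regulators did not pass. Psme3, which forms a nuclear activator, differed by 0.10 ± 0.12 (adjusted p = 0.587, 0.19 against C4). Psmf1, a proteasome inhibitor, had 0.16, 0.02 and 0.10 in the border zone, against 0.26, 0.16 and 0.13 in sham (-0.09 ± 0.11, adjusted p = 0.578, -0.17 against C4). Of the 5 assembly chaperones tested, 0 passed, with a median of 0.29, beside 9.01% of all probes called higher and 10.3% lower. Psmg4, a chaperone of the core particle, had 1.59, 1.85 and 1.66 in the border zone, against 1.48, 1.02 and 1.04 in sham. Its groups did not overlap, and the difference was 0.52 ± 0.17 (adjusted p = 0.0821) and 0.22 against C4. Psmg2, another core particle chaperone and chosen after its values were seen, had 0.46, 0.54 and 0.42 in the border zone, against 0.28, -0.59 and -1.16 in sham. C4 was 1.15 above the mean of C5 and C6, and the difference of 0.97 ± 0.36 (adjusted p = 0.112) was 0.20 against C4. The chaperones of the ATPase base, Psmd5, Psmd9 and Psmd10, differed by -0.05, 0.29 and -0.10, and by -0.12, 0.47 and -0.25 against C4.

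Psme3ip1, which matches by name only, had 1.62, 1.33 and 1.40 in the border zone, against 1.78, 1.92 and 1.98 in sham. Every border zone array was lower, by -0.45 ± 0.13 (SE, n = 3 per group, limma adjusted p = 0.0623), and by -0.33 against C4. It passed in 4 of 15 alternatives, quantile normalization (adjusted p = 0.0439) and the authors' table (adjusted p = 0.0417) among them.

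Genes that work with the proteasome were taken from lists by function. Of 7 tested partners and receptors outside the naming rule, 1 rose and 0 fell (median 0.18), beside 9.01% and 10.3% of all probes. Zfand2a, a stress-induced protein that binds the proteasome, had 0.71, 1.00 and 0.85 in the border zone, against -0.67, -1.48 and -1.65 in sham. Zfand2a rose by 2.12 ± 0.28 (limma adjusted p = 0.00725), or 4.35-fold, and by 1.52 against C4 (adjusted p = 0.0175), and its call held in 13 of 15 alternatives but not without M25 (adjusted p = 0.0513). In that list Pomp, the chaperone that matures the core particle, differed by 0.39 ± 0.13 (adjusted p = 0.0796, 0.32 against C4) and Sem1, a lid subunit, by 0.33 ± 0.11 (adjusted p = 0.0906, 0.29 against C4), with groups apart for both. Pomp and Sem1 were chosen after their values were seen.

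Of 7 genes around NRF1 control, 3 rose and 0 fell (median 0.39), beside 9.01% and 10.3% of all probes. Those not described below were Mafg, Ngly1 and Vcp. They differed by 0.39 ± 0.18, -0.31 ± 0.11 and -0.11 ± 0.15 (limma adjusted p = 0.174, 0.112 and 0.630). Against C4 they differed by 0.63, -0.38 and 0.14. Every border zone array was below every sham array for Ngly1. Nfe2l1, which encodes NRF1 itself, had -2.27, -2.76 and -2.34 in the border zone, against -2.24, -2.84 and -3.43 in sham (0.38 ± 0.32, -0.21 against C4, chosen after its values were seen), and its groups overlapped. Nfe2l2, the regulator of the oxidative stress response, had 3.67, 3.80 and 3.68 in the border zone, against 2.91, 1.68 and 1.09 in sham. Its border zone arrays were close together and its sham arrays spread widely: Nfe2l2 rose by 1.82 ± 0.45 (adjusted p = 0.0415) and by 0.81 against C4 (adjusted p = 0.0274), and 6 of 15 alternatives kept the call. The small Maf proteins pair with both factors. Mafk had 2.91, 2.93 and 2.84 in the border zone, against 2.01, 2.28 and 2.29 in sham, and rose by 0.70 ± 0.12 (adjusted p = 0.0174) and by 0.88 against C4 (adjusted p = 0.0202), with the call kept in 11 of 15 alternatives but not without M25 (adjusted p = 0.102). Maff had -3.98, -4.47 and -4.27 in the border zone, against -5.39, -6.27 and -6.02 in sham. Of the 3 sham arrays, 1 was well above background, so Maff entered the test through the border zone arrays alone. Its call, 1 of the 3 in this list, depends on that filter. Maff was at least 1.30-fold higher (adjusted p = 0.0128), and its fitted difference of 1.65, which was 1.15 against C4 (adjusted p = 0.0471), turned to -0.10 after normexp background correction, 1 of 14 alternatives.

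No ubiquitin gene or activating enzyme passed (0 of 6, median 0.04), beside 9.01% of all probes called higher and 10.3% lower. Of 10 shuttle receptors and cofactors of the p97 unfoldase, 1 rose and 0 fell (median 0.09), beside 9.01% and 10.3% of all probes. Rad23b, which carries ubiquitin-tagged proteins to the proteasome, had 3.71, 3.80 and 3.69 in the border zone, against 3.18, 3.01 and 3.16 in sham, and rose by 0.62 ± 0.11 (adjusted p = 0.0174). Its difference was 0.55 against C4 (adjusted p = 0.0440), and 10 of 15 alternatives kept the call, though not the one without M25 (adjusted p = 0.111). Of 10 genes of MHC class I antigen processing, 0 rose and 1 fell (median -0.13), beside 9.01% and 10.3% of all probes. Tapbp, which loads peptides onto MHC class I, had -1.98, -2.10 and -2.003 in the border zone, against -1.53, -1.60 and -1.62 in sham, and fell by 0.44 ± 0.10 (adjusted p = 0.0353). For Tapbp the difference was -0.50 against C4, where the call was lost (adjusted p = 0.0535 with scan as a block). It was also lost without M25 (adjusted p = 0.175) and after quantile normalization (adjusted p = 0.0904), and 4 of 15 alternatives kept it.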

How the data were processed

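Per the file headers, spot intensity values came from Agilent Feature Extraction 11.0.1.1, which subtracts background and removes spatial trends without scaling between arrays. The deposited flags, other values of 0 or 1 per spot, mark control, outlier, saturated and well above background spots. The authors' deposited table holds log2 values. Its column medians are 5.54 (M17) to 5.53 (C6) and its quantiles nearly coincide, so it was treated as quantile-normalized. Its values correlate with the log2 signal of the same array (r of 0.992 to 0.999), so scale and direction are settled. Of its 24529 probes, 24415 matched. It served as an alternative.

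Control and outlier spots were left out, spots of a probe were averaged on the log2 scale, and the 75th percentile of each array was subtracted. Probes entered the test if every array of a group, or of both, had them well above background (17930 of 24614 probes). This held for 17894 in the border zone and 11972 in sham. The groups were compared by limma 3.58.1 in R 4.3.3 (lmFit and eBayes, two-sided, Benjamini-Hochberg over all probes tested, adjusted p below 0.05). The code was tested on simulated data. Tables were made with pandas 2.3.3 and numpy 2.4.6 in Python 3.11.15, and figures with matplotlib 3.10.9. Replicates are animals per the labels, and 3 arrays per group limit the precision. A dim group was raised to each array's lowest signal well above background before a fold was given as "at least".

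With scan as a block, C4 is the only sham array that bears on the comparison, which leaves 2 residual degrees of freedom and no spread between sham animals. Normexp (offset 50) used the median spot signal in place of the planned mean signal. Probes were named through accessions in a RefSeq gene table (GRCr8); the array design names rn4, so no probe coordinates were used. The alternatives were background correction, scaling, filter, scan, the authors' table, mean of a gene's probes and leaving out arrays.

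Named with values on every array were the genes that passed, the immunoproteasome and constitutive beta genes, the gene with the smallest p in a role group with no call, and up to 3 passing genes of each other list. The genes and lists were chosen with earlier results of these data known.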

Additional observations from a re-analysis of the deposited data

How the results depend on the processing

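Over 15 alternatives, 24 of the 44 proteasome genes had a log2 fold change above 0 in every one, 1 below 0 in every one, and 19 changed sign in at least 1. The filter settings and the mean of a gene's probes use the same values for these genes, so no sign could change there. The count of genes called higher, 3 as reported, was 1 with no filter on dim probes (3.21% of all probes), 7 with only probes well above background on all 6 arrays (15.8% of all probes), 0 with scan as a block and 0 without M25 and with scan as a block. The count called lower was 0 as reported. It was 1 under quantile normalization (9.24% of all probes), 1 with that stricter filter (20.2%) and 1 in the authors' table (9.87%). Each time the gene was Psme3ip1. The median log2 fold change, 0.22 as reported, was 0.29 after normexp, 0.0685 after quantile normalization, 0.41 after median scaling, 0.20 with scan as a block and 0.0687 in the authors' table. The genes with every border zone array above every sham array, 24 as reported, numbered 13 under quantile normalization, 13 in the authors' table, 32 under median scaling and 30 after normexp, all 4 added after seeing the data. Over all probes the share was 20.9% as reported, and 24.1, 24, 29.5 and 15.6% under those 4 in turn. The immunoproteasome median, 0.08 as reported, was -0.22 without M25 and with scan as a block. The cause was not tested. Leaving out each array in turn gave 0 to 13 genes called higher, 0 to 1 called lower and a median of 0.18 to 0.23. Over all probes, 1.59% (without M25) to 20.7% (without C4) were called higher, and 1.24% to 20.5% lower. For the immunoproteasome, leaving out each array gave 0 to 1 called higher and 0 called lower, with a median of 0.05 to 0.11. The highest counts came without C4. Over all probes tested, 46.7% of the calls were higher, and 67.6% were under median scaling. The calls over all probes, 1615 higher and 1845 lower, were 3739 and 3694 without C4 and 286 and 223 without M25. Array weights could not be fitted, since their estimate did not settle. No paired analysis was possible because the groups share no replicate numbers.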

Other observations

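The spread within a group depended on C4 and M25. The median SD of the 44 proteasome genes was 0.06 in the border zone and 0.14 in sham on the log2 scale. Over all probes tested it was 0.12 and 0.27. The sham SD was the larger for 86.4% of the 44 genes and 77.7% of all probes. The border zone arrays include M25, which may not be a separate animal. With M25 and C4 left aside the values were close: the median absolute log2 difference over these genes was 0.10 between M17 and M24 and 0.11 between C5 and C6, and over all probes tested it was 0.21 and 0.21. Over these genes C4 differed from C5 by 0.15 and from C6 by 0.26.

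C4 was above both C5 and C6 for 19 of the 44 genes and below both for 21, beside 38.1% and 39.2% of all probes tested. By role, these counts were 4 and 2 of 7 for the alpha ring, 3 and 4 of 7 for the constitutive beta ring, 4 and 0 of 5 for the immunoproteasome, 3 and 3 of 6 for the ATPases and 0 and 9 of 10 for the non-ATPases. Whether the roles differ was not tested. C4 also differed from C5 and C6 in scan and in central nervous tissue markers, and their part in these counts was not tested.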
